A study of Mus musculus with 6 samples.

Results

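The genes described here code for G protein subunits of chemosensory neurons: the alpha subunits Gnao1, Gnai2, Gnai1, Gnai3, Gnal and Gnaq, the gamma subunits Gng2, Gng8 and Gng13, and the beta subunit Gnb1. They were chosen by name, and each was measured by the probe set with the highest mean among those that the platform annotation gives to that gene alone. Of the 10 genes, 9 had such a probe set and entered the fit of 22180 genes. Gng13 lies only on probe sets shared with Chtf18, so no value is given for it. Gnal has a further probe set shared with Mppe1, which was not used.

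RNA was taken from vomeronasal organs (VNOs) of wild-type and AP-2e null mice at postnatal day 17, and 3 samples of each genotype were hybridised to 1 Affymetrix whole-transcript array each. The AP-2e null mice lack the transcription factor AP-2e, an AP-2 family protein encoded by Tfap2e. The sources used here do not give how the allele was made, the strain, the sex or the number of animals behind a sample, and p-values therefore measure the spread between these samples. Values are log2 signals as deposited, so a difference of 1 is a doubling. Array medians lay between 4.997 and 5.079. Tfap2e itself gave 6.46, 6.76 and 6.92 on the wild-type arrays and 5.97, 6.09 and 6.04 on the AP-2e null arrays, which did not overlap (difference -0.68, adjusted p = 0.431 in limma). The markers of vomeronasal neurons were present in both genotypes: Omp lay between 9.46 and 10.48 and Trpc2, the transduction channel, between 6.75 and 7.08.

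A heterotrimeric G protein carries the signal of a receptor into the cell: the receptor makes the alpha subunit exchange GDP for GTP, and the alpha subunit and the beta-gamma pair then separate and act on effectors such as phospholipase C and adenylyl cyclase. In the VNO, which detects pheromones and other social cues, neurons of the apical layer carry V1R receptors and use Gnai2 with Gng2, and neurons of the basal layer carry V2R receptors and use Gnao1 with Gng8. Neurons of the main olfactory epithelium use Gnal, which activates adenylyl cyclase, together with Gng13. Because whole organs were measured, fewer cells of a type and less RNA per cell cannot be told apart in any value below.

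The comparison asks how the subunits differ without AP-2e, so the promoter sequences of the basal pair, Gnao1 and Gng8, of apical Gng2 and of the shared beta subunit Gnb1 are shown first. They come from RefSeq (build GRCm38.p6), run from 250 bases before to 50 bases after the start of the gene, and are written 5′ to 3′ in the direction of the gene. Capitals mark matches to the AP-2 consensus with either spacing, GCCNNNGGC or GCCNNNNGGC, which read the same on both strands. The windows are Gnao1 at chr8:93810588-93810887 (plus strand), Gng8 at chr7:16891536-16891835 (plus strand), Gng2 at chr14:19976644-19976943 (minus strand) and Gnb1 at chr4:155491111-155491410 (plus strand).
Gnao1: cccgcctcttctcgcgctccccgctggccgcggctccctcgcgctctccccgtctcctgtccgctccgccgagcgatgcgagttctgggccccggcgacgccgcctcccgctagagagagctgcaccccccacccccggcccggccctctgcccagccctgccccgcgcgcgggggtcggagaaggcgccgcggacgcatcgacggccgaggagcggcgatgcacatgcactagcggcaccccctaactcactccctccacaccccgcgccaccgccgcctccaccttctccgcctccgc
Gng8: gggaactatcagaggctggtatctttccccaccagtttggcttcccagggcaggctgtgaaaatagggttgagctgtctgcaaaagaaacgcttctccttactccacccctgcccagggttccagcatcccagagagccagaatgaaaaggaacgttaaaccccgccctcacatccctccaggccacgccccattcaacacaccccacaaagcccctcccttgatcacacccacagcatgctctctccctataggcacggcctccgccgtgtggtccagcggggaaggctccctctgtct
Gng2: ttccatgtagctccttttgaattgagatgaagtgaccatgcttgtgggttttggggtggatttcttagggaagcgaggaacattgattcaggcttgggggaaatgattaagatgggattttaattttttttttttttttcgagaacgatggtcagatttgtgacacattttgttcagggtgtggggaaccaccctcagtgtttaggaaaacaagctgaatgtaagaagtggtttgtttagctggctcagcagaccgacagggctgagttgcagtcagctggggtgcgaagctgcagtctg
Gnb1: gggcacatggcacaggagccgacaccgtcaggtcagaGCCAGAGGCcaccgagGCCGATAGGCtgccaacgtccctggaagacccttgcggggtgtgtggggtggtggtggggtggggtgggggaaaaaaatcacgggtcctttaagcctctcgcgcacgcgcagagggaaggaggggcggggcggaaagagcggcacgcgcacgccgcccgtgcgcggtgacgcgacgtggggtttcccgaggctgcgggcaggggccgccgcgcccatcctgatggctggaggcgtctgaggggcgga
The windows of Gnao1, Gng8 and Gng2 held no match to either spacing, while that of Gnb1 held GCCAGAGGC and GCCGATAGGC. Windows of 8 of the 10 genes were used, and none was used for Gnai2 or Gnal. The choice of these windows skipped a chromosome that the shares over all genes below include. GCCNNNGGC was found for 3 of the 8 (Gnai1, Gng13 and Gnb1) and GCCNNNNGGC for 4 (Gnai3, Gnaq, Gng13 and Gnb1). Of all 27025 genes with a window in the table, 18.5% had GCCNNNGGC and 16.6% had GCCNNNNGGC in at least 1 window, and over all 32851 windows, each of the same length, the shares were 16.6% and 14.8%. The fixed letters of both spacings are G and C, and GC content ran from 59.3% to 80.0% in the windows with a match. Windows without a match held 44.7% (Gng2), 58.0% (Gng8), 62.0% (1 Gng13 window) and 76.3% (Gnao1). The shares over all genes were not matched for GC content, so they are no test of an excess. A match describes these letters alone, and no match says nothing about binding of AP-2e elsewhere.

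Of the 9 measured subunit genes, 0 passed an adjusted p of 0.05 over all genes in limma, where 0.225% of all genes passed, 0.216% as lower and 0.00902% as higher. At an unadjusted p under 0.05 there were 2, Gnao1 (lower) and Gng2 (higher), against 4.40% of all genes (2.49% lower and 1.90% higher), and the plain one-way test also called 0 of the 9. Wild-type and AP-2e null arrays were fully separated for Gnao1 and Gnb1 (lower) and Gng2 (higher), as they were for 7.06% of all genes (3.64% lower and 3.42% higher). The AP-2e null mean was higher for 7 of the 9 genes, against 10966 of all 22180 genes, and lower for Gnao1 and Gnb1. The median difference (AP-2e null minus wild-type) of the 9 was 0.08 on the log2 scale, against -0.00 over all genes.

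**Figure D1:**
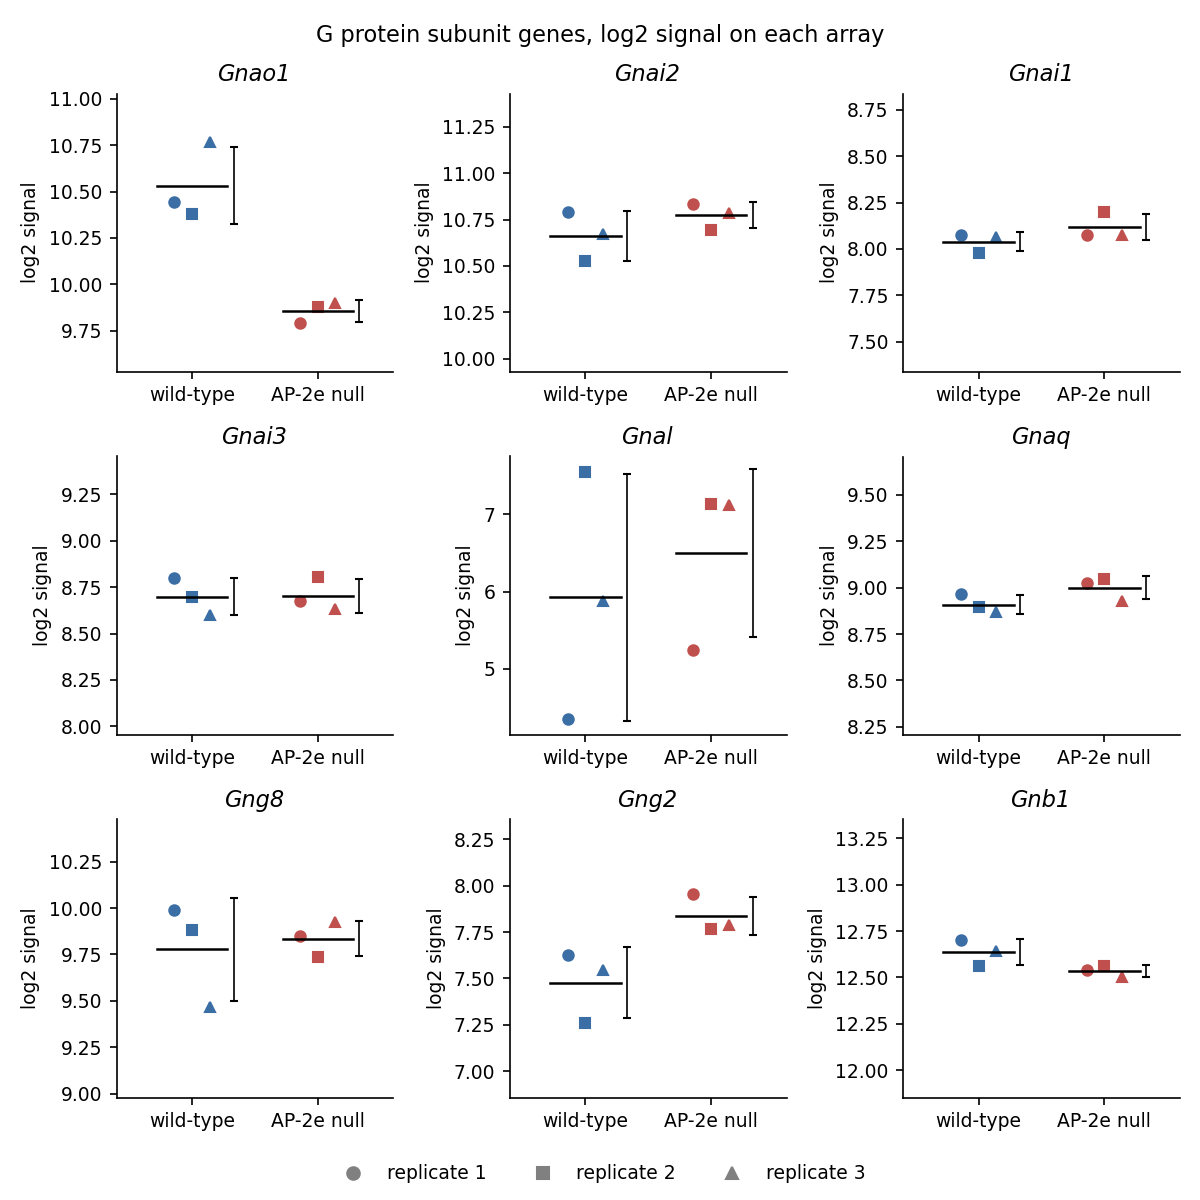
Log2 signal of the 9 measured subunit genes on each array, wild-type in blue and AP-2e null in red, with the mean (line) and SD (bar, n = 3 arrays). Each panel spans 1.5 log2 units except Gnal, which spans 3.6; in AP-2e null VNOs Gnao1 lay lower and Gng2 higher without overlap, while Gng8 and Gnai2 overlapped.

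Gnao1, the alpha subunit of basal neurons, had the largest difference of the 9 genes. Its log2 signal was 10.45, 10.38 and 10.77 on wild-type arrays 1, 2 and 3, and 9.79, 9.88 and 9.90 on AP-2e null arrays 1, 2 and 3. Every AP-2e null array lay below every wild-type array, and wild-type replicate 3 was the highest. Wild-type arrays averaged 10.53 ± 0.21 and AP-2e null arrays 9.86 ± 0.06 (SD, n = 3 each), which gave a difference of -0.68 (SE 0.11, 95% interval -0.96 to -0.39), or 1.598-fold lower. The unadjusted p was 0.00126 and the adjusted p over all genes 0.331 in limma, so Gnao1 did not pass. With 1 array left out it ranged from -0.75 to -0.56 and its adjusted p from 0.153 to 0.942.

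Among all 22180 genes, 172 had a lower difference than Gnao1, and 89 of these were V2R genes. Those 89 are out of 109 measured V2R genes, whose median difference was -1.78. Omp, the marker of mature sensory neurons, was also lower on every AP-2e null array, at 9.87, 9.46 and 9.79 against 9.93, 9.93 and 10.48 in wild-type (difference -0.41, adjusted p = 0.873 in limma). The part of Omp-bearing neurons in the difference of Gnao1 was not tested.

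Gng8, a gamma subunit found with Gnao1 in basal neurons and also present in immature sensory neurons, gave 9.99, 9.88 and 9.46 on the wild-type arrays and 9.85, 9.74 and 9.92 on the AP-2e null arrays. The groups overlapped, and wild-type replicate 3, where Gnao1 was highest, had the lowest Gng8 value. Wild-type arrays averaged 9.78 ± 0.28 and AP-2e null arrays 9.84 ± 0.09 (SD, n = 3 each), which gave a difference of 0.06 (SE 0.15, 95% interval -0.31 to 0.43, adjusted p = 0.946 in limma). Without wild-type replicate 3 the difference was -0.10, so its direction rests on that array. The interval does not reach the -0.68 of Gnao1, though the difference between these 2 genes was not tested. The 5 markers of immature neurons had a list mean between 7.09 and 7.36 on the wild-type arrays and between 7.18 and 7.32 on the AP-2e null arrays, with 2 of 5 genes higher and 3 lower.

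Gnai2, the alpha subunit of apical neurons, gave 10.79, 10.52 and 10.67 on the wild-type arrays and 10.84, 10.70 and 10.79 on the AP-2e null arrays. The groups overlapped, at 10.66 ± 0.13 and 10.77 ± 0.07 (SD, n = 3 each), and differed by 0.11 (SE 0.09, 95% interval -0.10 to 0.33, adjusted p = 0.873 in limma). Over single arrays left out, the difference lay between 0.04 and 0.18.

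Gng2, the gamma subunit of apical neurons, gave 7.63, 7.26 and 7.54 on the wild-type arrays and 7.95, 7.77 and 7.79 on the AP-2e null arrays. Every AP-2e null array lay above every wild-type array. Wild-type arrays averaged 7.48 ± 0.19 and AP-2e null arrays 7.84 ± 0.10 (SD, n = 3 each), which gave a difference of 0.36 (SE 0.12, 95% interval 0.07 to 0.65), or 1.28-fold. The unadjusted p was 0.0225 and the adjusted p 0.873 in limma, so Gng2 did not pass. With 1 array left out the difference lay between 0.25, without wild-type replicate 2, and 0.44. V1R receptor genes, which mark the same neurons, had a median difference of 0.22 over 176 genes. Of these, 142 had higher means, against 10966 of all 22180 genes. Of the 176, 32 were higher without overlap (18.2%, against 3.42% of all genes), 27 were higher at an unadjusted p under 0.05 (15.3%, against 1.90%) and 0 passed. The mean of the 176 was 5.99, 5.43 and 5.92 on the wild-type arrays and 6.15, 6.01 and 5.92 on the AP-2e null arrays, with overlap. Wild-type replicate 2 was the lowest array for this mean, as it was for Gng2.

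Gnai2 and Gng2 are also made by leukocytes, whose markers stood slightly higher on the AP-2e null arrays. The mean of the 6 leukocyte markers lay between 7.26 and 7.44 on the wild-type arrays and between 7.46 and 7.59 on the AP-2e null arrays. Of the 6, 5 had higher means and 0 passed. Ptprc, the pan-leukocyte phosphatase CD45, differed by 0.28 and Csf1r, the macrophage receptor, by 0.16, both without overlap. Over all genes, 3.42% were higher without overlap. Cd68, Itgam and Cd3e were higher with overlap, by 0.13, 0.19 and 0.22, and Adgre1 differed by -0.01 with overlap. The 6 neutrophil markers all had higher means, with a median difference of 0.57 and list means from 6.78 to 7.88 on the wild-type and from 7.67 to 8.01 on the AP-2e null arrays, which overlapped. The pericyte receptor gene Pdgfrb was higher without overlap, by 0.26 (unadjusted p = 0.00468, adjusted p = 0.756 in limma). It was the only 1 of 5 smooth muscle and pericyte markers without overlap, and of the 5, 4 had higher means and 1 lower. Their list mean overlapped, from 9.62 to 9.87 on the wild-type arrays and from 9.73 to 9.94 on the AP-2e null arrays. The part of these cells in the values of Gng2 and Gnai2 was not tested.

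**Figure D2:**
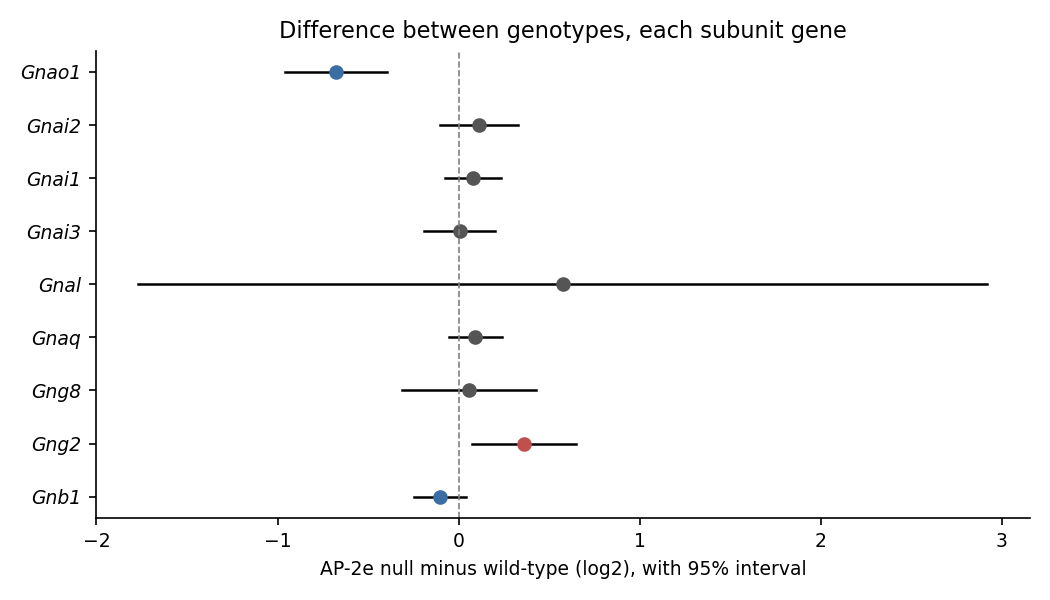
Log2 difference (AP-2e null minus wild-type) of each measured subunit gene, with the 95% interval of the limma fit (unadjusted for the number of genes). Blue and red points mark genes whose AP-2e null arrays all lay below or above the wild-type arrays, and grey points genes that overlapped; only the intervals of Gnao1 and Gng2 leave out 0, and that of Gnal is the widest.

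Whether basal and apical subunits changed unequally was asked within each array, where a scaling of the whole array has no effect. The log2 signal of Gnao1 minus that of Gnai2 was -0.35, -0.14 and 0.10 on the wild-type arrays and -1.05, -0.82 and -0.89 on the AP-2e null arrays. The groups did not overlap, and the means of -0.13 ± 0.22 and -0.92 ± 0.12 (SD, n = 3 each) differed by -0.79, a 1.72-fold unequal change. The exact 2-sided permutation p was 0.1, the smallest that 3 against 3 allows, so this permutation test cannot reach 0.05. The 2 probe sets are not calibrated to each other, so the sign of the value itself does not say which gene is more abundant.

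The gamma pair gave a smaller and less regular value. Gng8 minus Gng2 was 2.36, 2.62 and 1.92 on the wild-type arrays and 1.89, 1.97 and 2.13 on the AP-2e null arrays, with overlap. The means of 2.30 ± 0.35 and 1.999 ± 0.12 (SD, n = 3 each) differed by -0.30 (exact permutation p = 0.3). Without wild-type replicate 2 this was -0.14 and without wild-type replicate 3 it was -0.49.

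Gnao1 was set against 2 genes of all vomeronasal neurons, Trpc2 and Omp, in the same way. Omp marks mature sensory neurons and is not restricted to the VNO, and the part of main olfactory neurons in its values was not tested. Against Trpc2 it was 3.38, 3.52 and 3.69 on the wild-type arrays and 2.73, 3.13 and 2.84 on the AP-2e null arrays, without overlap, a difference of -0.63 (exact permutation p = 0.1). Against Omp it was 0.52, 0.45 and 0.29 on the wild-type arrays and -0.08, 0.42 and 0.11 on the AP-2e null arrays, with overlap, a difference of -0.27 (exact permutation p = 0.2). Without AP-2e null replicate 1 the value against Omp was -0.15, and without AP-2e null replicate 2 it was -0.40. The choice of the neuronal reference gene thus more than doubled the value, and Trpc2 differed by -0.04 between genotypes. The deposited Trpc2 value was identical, at 7.06, on AP-2e null replicates 1 and 3 and wild-type replicate 1.

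**Figure D3:**
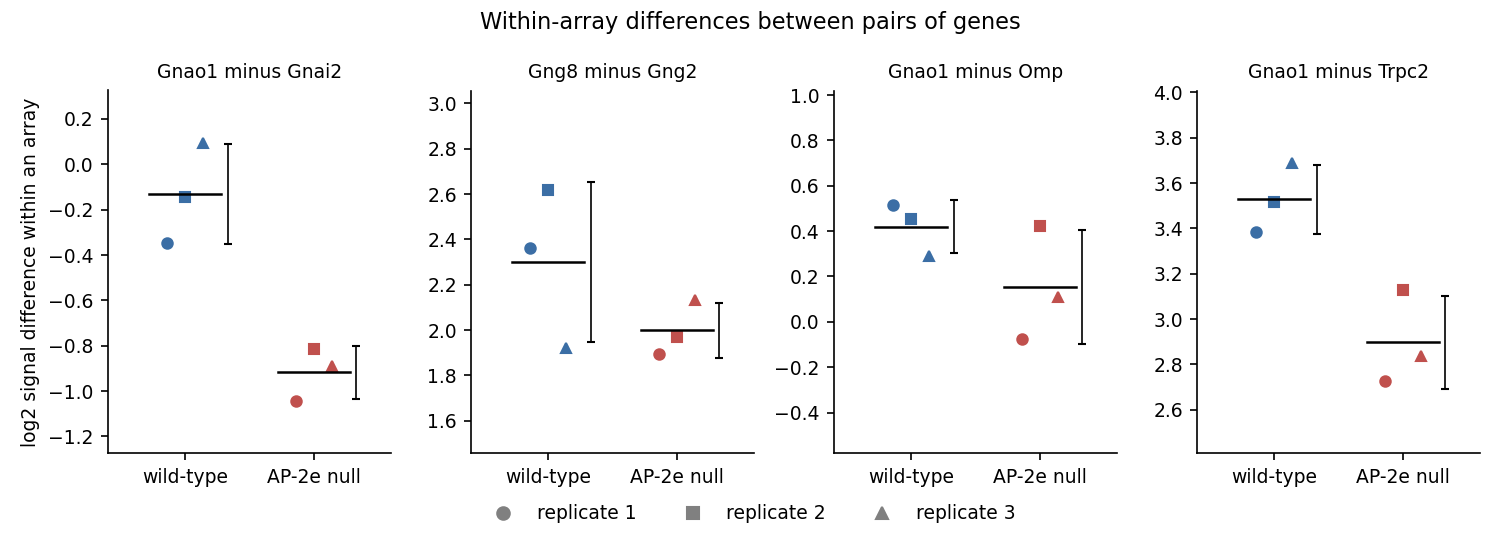
Log2 signal of the first gene minus that of the second on each array, wild-type in blue and AP-2e null in red, with the mean (line) and SD (bar, n = 3); all panels span the same number of log2 units. Gnao1 minus Gnai2 and Gnao1 minus Trpc2 separated the genotypes, while Gng8 minus Gng2 and Gnao1 minus Omp overlapped.

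The other inhibitory alpha subunits, Gnai1 and Gnai3, are relatives of Gnai2 that many cell types make and that lower cyclic AMP. Gnai1 gave 8.08, 7.98 and 8.06 on the wild-type arrays and 8.08, 8.20 and 8.08 on the AP-2e null arrays (difference 0.08, SE 0.06, adjusted p = 0.873 in limma). The deposited value of Gnai1 was identical on 3 arrays, and 53.6% of the tested genes had at least 1 such repeated value. The Gnai1 difference was 0.04 without AP-2e null replicate 2 and 0.05 without wild-type replicate 2. Gnai3 gave 8.80, 8.70 and 8.60 on the wild-type arrays and 8.68, 8.81 and 8.63 on the AP-2e null arrays, a difference of 0.01 (SE 0.08, adjusted p = 0.994 in limma) whose sign turned in 3 of 16 alternatives. Both genes overlapped between genotypes. Their 95% intervals were -0.08 to 0.23 for Gnai1 and -0.19 to 0.20 for Gnai3.

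Gnaq, the alpha subunit that activates phospholipase C beta, gave 8.96, 8.90 and 8.87 on the wild-type arrays and 9.02, 9.05 and 8.93 on the AP-2e null arrays. The groups overlapped by 1 array each way, and the difference was 0.09 (SE 0.06, 95% interval -0.06 to 0.24, adjusted p = 0.873 in limma).

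Gnb1, a beta subunit shared by both layers, gave 12.70, 12.56 and 12.64 on the wild-type arrays and 12.54, 12.56 and 12.50 on the AP-2e null arrays. The groups did not overlap, but the lowest wild-type value, 12.564, and the highest AP-2e null value, 12.563, almost met. The difference was -0.10 (SE 0.06, 95% interval -0.25 to 0.04, adjusted p = 0.873 in limma).

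Gnal, the alpha subunit of main olfactory neurons, varied far more between arrays than between genotypes. It gave 4.35, 7.55 and 5.88 on the wild-type arrays and 5.24, 7.14 and 7.12 on the AP-2e null arrays, so both the lowest and the highest value were wild-type. Wild-type arrays averaged 5.93 ± 1.601 and AP-2e null arrays 6.50 ± 1.09 (SD, n = 3 each), which gave a difference of 0.58 (SE 0.94, adjusted p = 0.912 in limma). Its spread within genotypes lay at percentile 99.7 of all genes, against percentiles from 11.3 to 73.2 for the other 8 subunit genes. Without wild-type replicate 1 the difference was -0.21, so the direction rests on that array.

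Markers of main olfactory neurons varied over the same arrays. Cnga2, their cyclic nucleotide-gated channel, gave 3.36, 5.75 and 3.82 on the wild-type arrays and 4.48, 5.42 and 5.29 on the AP-2e null arrays. Stoml3, a stomatin-like protein of their cilia, gave 8.73, 10.51 and 8.73 on the wild-type arrays and 8.43, 10.18 and 10.25 on the AP-2e null arrays. The 3 highest arrays, AP-2e null replicates 2 and 3 with wild-type replicate 2, were the same for Gnal, Cnga2 and Stoml3. The mean of the 5 measured markers lay between 7.39 and 8.28 on the wild-type arrays and between 7.49 and 8.09 on the AP-2e null arrays, with 2 of 5 higher and 3 lower. Cngb1, Gfy and Pde1c did not separate these 3 arrays from the rest. Gfy lay between 11.23 and 11.56 on all 6 arrays, with its mean at percentile 99.5 of all genes. Whether Gfy marks main olfactory neurons alone in these samples was not tested. The part of main olfactory neurons in the Gnal values was not tested.

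**Figure D4:**
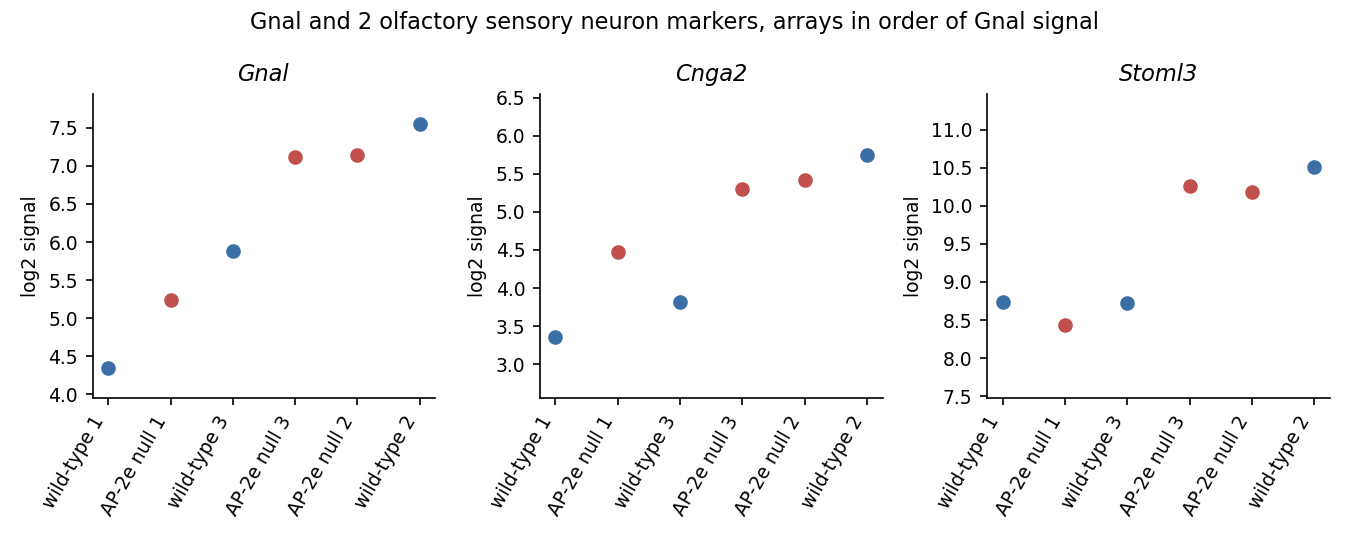
Log2 signal of Gnal and of the main olfactory neuron markers Cnga2 and Stoml3 on each array, wild-type in blue and AP-2e null in red, with arrays ordered by Gnal; each panel spans 4 log2 units. The 3 arrays with the highest Gnal, AP-2e null replicates 2 and 3 with wild-type replicate 2, were also the highest for Cnga2 and Stoml3.

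The other genes of the pathway showed no call. Of 83 further subunits, regulators and effectors, 78 were measured and 0 passed in either direction in limma, and 3 (3.85%) had an unadjusted p under 0.05, near the 4.40% of all genes. The genotypes did not overlap for 8 of the 78 (10.3%, 3 lower and 5 higher), against 7.06% of all genes. Their median difference was 0.04, with values from -0.41 to 0.55.

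Among the other subunits, Gnat3, the alpha subunit gustducin of taste and solitary chemosensory cells, had the smallest unadjusted p. Its mean signal was low, at percentile 38.3 of all genes. It gave 5.56, 5.23 and 5.36 on the wild-type arrays and 4.85, 5.10 and 4.96 on the AP-2e null arrays, without overlap, a difference of -0.41 (SE 0.11, unadjusted p = 0.0105, adjusted p = 0.873 in limma). The remaining alpha subunits with the smallest p were Gnat2, a cone transducin, at -0.11 and Gnaz at 0.05. Of 3 beta subunits, Gnb4 differed by 0.19, Gnb3 by 0.10 and Gnb5 by -0.04. The 9 gamma subunits lay between -0.15 for Gngt2 and 0.11, with Gng7 at 0.07 and Gng10 at -0.08.

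Of 36 measured regulators, among them the RGS proteins that speed GTP hydrolysis by alpha subunits, 0 passed. Rgs2, which acts on Gnaq, was higher on every AP-2e null array, at 8.84, 9.03 and 9.12 against 8.66, 8.74 and 8.74 (difference 0.28, SE 0.08, adjusted p = 0.873 in limma). Rgs9 was lower on every AP-2e null array with a difference of -0.20, and Rgs7bp, which anchors RGS proteins at membranes, was higher on every one with a difference of 0.26. Of 20 measured effectors 0 passed, and 15 had higher means, against 10966 of all 22180 genes. Adcy4, an adenylyl cyclase, differed by 0.25 and the phospholipase Plcb4 by 0.15, both without overlap, and Adcy8 differed by 0.24 with overlap.

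**Figure D5:**
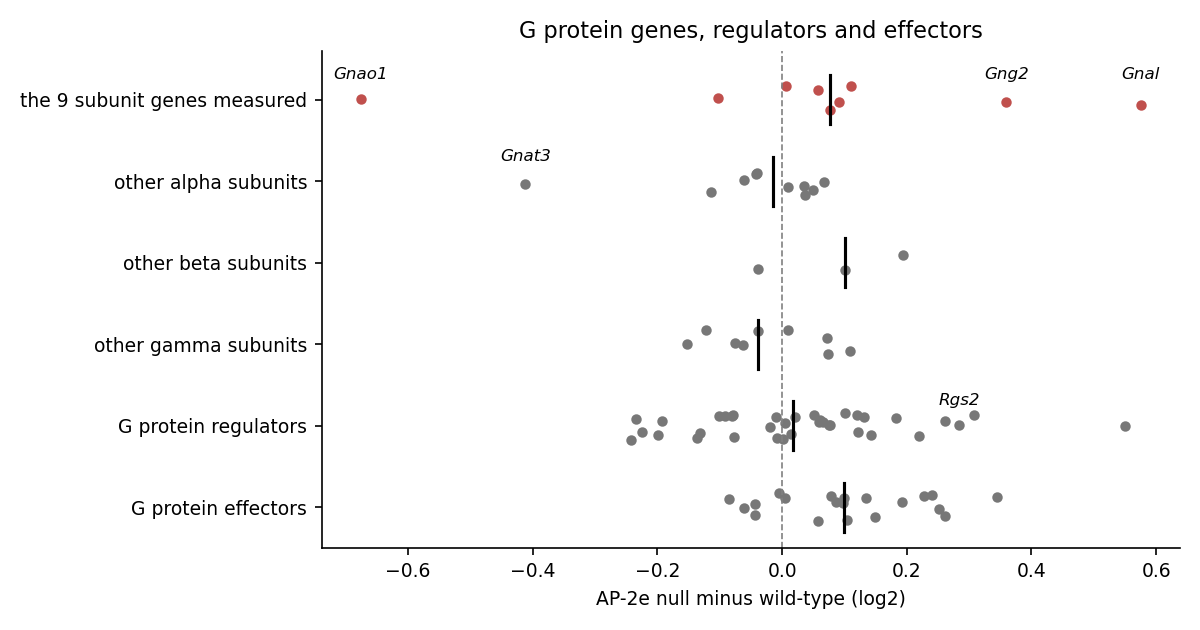
Log2 difference (AP-2e null minus wild-type) of each gene, for the 9 measured subunit genes (red) and the other genes of the pathway (grey), 1 point a gene, with the median of each list as a vertical line. Gnao1 at -0.68 lies outside the range of the 78 other pathway genes, -0.41 to 0.55, and Gnal at 0.58 lies just outside it at the other end.

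The genes whose pattern over the 6 arrays was most like that of Gnao1 were sought among the 11089 other genes with a mean above the median gene. The measure was the root mean square difference between 2 genes' log2 values, each centred on its own mean. Tfap2e came first at 0.11, followed by the axon guidance receptor gene Robo2 at 0.11, the lysosomal channel gene Mcoln3 at 0.11, the protocadherin gene Pcdh9 at 0.12 and the sphingosine phosphatase gene Sgpp2 at 0.12. All 5 were lower in AP-2e null VNOs without overlap, with differences from -0.68 for Tfap2e to -0.49 for Robo2, and 0 of them passed. Because the 5 were chosen for closeness to the values of Gnao1, this direction and size follow from the choice. The other measured subunit genes lay farther off, from 0.31 for Gnb1 to 1.29 for Gnal, with Gng8 at 0.46 and Gng2 at 0.54.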

How the data were processed

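VNO samples of both genotypes, 3 of each, were measured on 1 array each. The deposited values are log2 signals, which the authors made with RMA and the Transcriptome Analysis Console per the submitters' processing notes; the sources used here do not give versions, settings or genome build. RMA makes the arrays' distributions equal, so a change of most genes in 1 direction would not show. Of 41345 probe sets, 23521 had 1 gene, 1814 several and 16010 none, and the brightest per gene was kept (22180 genes, no filter on dim genes). Genes were fitted with limma 3.58.1 in R 4.3.3 (lmFit, eBayes, 2-sided, no covariate), with Benjamini-Hochberg adjustment over all genes and a threshold of 0.05. Within-array differences were tested by exact permutation over 20 arrangements. Tested on simulated data for this comparison (22180 genes), the fit recovered 88 of 100 changes of 1 log2 unit and 99 of 100 of 2 units, with 8 calls among unchanged genes in the same run. No smaller change was simulated, so the recovery of a difference such as the -0.68 of Gnao1 is not known. In the deposited data, 42 of 109 V2R genes passed, at a median difference of -1.78. The genes named were the 10 subunits, Tfap2e, up to 3 genes of smallest p per pathway list and the 5 genes most like Gnao1; leukocyte, neutrophil, pericyte and olfactory neuron markers were named after their values were seen. Members and lists were chosen with earlier results of these data known. Alternatives were other moderation, probe set rules, a dim filter, other normalizations, array weights, a plain one-way test, a replicate block and leaving out each array. Plots were drawn with matplotlib 3.10.9.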

Additional observations from a re-analysis of the deposited data

How the results depend on the processing

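No subunit gene passed under any of the 16 alternatives. Gnao1 stayed lower in all 16 (-0.75 to -0.56, adjusted p 0.153 to 0.942), and Gng2 (0.25 to 0.44) and Gnai2 (0.04 to 0.18) stayed higher. Gng8 turned to -0.044 with array weights and -0.10 without wild-type replicate 3, and ranged from -0.10 to 0.16 over single arrays left out. Gnai3 turned to -0.017 with array weights, -0.043 without wild-type replicate 3 and -0.046 without AP-2e null replicate 2 (-0.046 to 0.054 over single arrays left out), and Gnal to -0.21 without wild-type replicate 1 (-0.21 to 1.39). The causes were not tested. Gnao1 minus Gnai2 lay between -0.89 and -0.67 and Gnao1 minus Trpc2 between -0.75 and -0.55 over their 10 alternatives. The labels do not say whether replicate numbers pair the samples. Over all genes, deviations from the genotype mean correlated at 0.04, 0.11 and 0.02 between arrays of equal replicate number. Whether single genes are paired cannot be told from this. With the replicate block, 0 subunit genes passed, Gnao1 stood at -0.68 (adjusted p = 0.617), and Gnao1 minus Gnai2 had an exact sign-flip p of 0.25, the smallest 3 pairs allow. Over all genes the count was 48 lower and 2 higher, with the block 22 and 0, in the plain one-way test 4 and 0, and with 1 array left out 17 to 32 lower. With 3 arrays per genotype, differences as small as those of Gnai2, Gnai1, Gnai3, Gnaq and Gnb1 cannot be resolved.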

Other observations

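Gnat3, Trpm5, Plcb2, Pou2f3 and Avil were also measured as markers of solitary chemosensory cells. The mean of the 5 lay between 5.35 and 5.56 on the wild-type arrays and between 5.20 and 5.30 on the AP-2e null arrays, without overlap. Without Gnat3 the ranges, 5.38 to 5.56 and 5.25 to 5.41, overlapped. Of the 5 genes, 4 had lower means, against 11214 of all 22180 genes, and 0 passed in limma. At an unadjusted p under 0.05 there was 1, Gnat3, against 2.49% of all genes as lower. Gnat3 was named above because of its small p, so it is not a separate result here. Avil, an actin regulator of these cells, differed by -0.26 and their transcription factor Pou2f3 by -0.20, both with overlap, and their channel Trpm5 by -0.09. Plcb2, the phospholipase of their taste-like cascade, differed by 0.00.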
